A study of Homo sapiens with 6 samples.

Results

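CDK inhibitors are proteins that bind or dephosphorylate cyclin-dependent kinases (CDKs) and thereby hold back the cell cycle. Their 8 genes *CDKN1A*, *CDKN1B*, *CDKN1C*, *CDKN2A*, *CDKN2B*, *CDKN2C*, *CDKN2D* and *CDKN3* were taken by gene symbol from the 60480 gene identifiers of the deposited count table, where each had 1 entry. RNA-seq had been done on OE-19, an adenocarcinoma line of the esophagogastric junction (AEG), with 3 control libraries (shControl, named Puro in the table) and 3 libraries with knockdown of IGF2BP3 by shRNA (shIGF2BP3, here IGF2BP3 KD). IGF2BP3 is an RNA-binding protein that reads m6A and stabilizes many of its target mRNAs. All 6 libraries came from the same line, the labels do not say which hairpin each IGF2BP3 KD library carries or whether the 3 libraries of a group are separate cultures, and the p-values therefore measure the spread between these libraries, which may be technical.

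CDK inhibitors fall into families that act in different ways. The CIP/KIP proteins p21 (*CDKN1A*), p27 (*CDKN1B*) and p57 (*CDKN1C*) bind whole cyclin-CDK complexes, above all those of CDK2 with cyclin E or cyclin A. The INK4 proteins p15 (*CDKN2B*), p16 (*CDKN2A*), p18 (*CDKN2C*) and p19 (*CDKN2D*) are built of ankyrin repeats and bind the monomeric kinases CDK4 and CDK6, so that D-type cyclins cannot activate them. *CDKN3* encodes a phosphatase that removes the activating phosphate from CDK2 and is itself a gene of proliferating cells. *CDKN2A* and *CDKN2B* lie side by side at 9p21, a locus that is often deleted in cancers of the upper digestive tract.

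Library totals ranged from 53453621 to 70026203 counts, and each CDK inhibitor gene had at least 897 counts in every library, so that all 8 passed the filter on low counts. Levels are given as TMM-scaled CPM, that is counts relative to library size, with the SD over 3 libraries, and libraries are always listed in the order of replicates 1, 2 and 3. A gene was called when its p, from the quasi-likelihood test of edgeR and adjusted by Benjamini-Hochberg over 19778 genes, was under 0.05, and fold changes set IGF2BP3 KD against control. *IGF2BP3* itself had 108, 106 and 112 CPM in the control libraries and 14.4, 12.8 and 12.6 CPM in the IGF2BP3 KD libraries. Of 8 columnar epithelial markers, 7 reached a mean level of 1 CPM, with *KRT20* below it. Their summed level was 18171 to 19158 CPM in control and 19849 to 20307 CPM in IGF2BP3 KD libraries. Most of it was *ERBB2*, which was itself called higher, with a log2 fold change of 0.13. The other 7 markers summed to 5693 to 5762 CPM in control and 5615 to 5731 CPM in IGF2BP3 KD libraries. Among these, *KRT8* and *KRT18* were called lower and *EPCAM* and *CDX2* called higher. Of the markers of other cells, 1 of 6 fibroblast markers (*COL1A1*), 2 of 6 leukocyte markers (*CD68* and *LYZ*, which epithelial tumor cells can also express) and none of 4 endothelial markers reached 1 CPM, while *COL1A2*, *LUM* and *CD3E* had no count in any library. The fibroblast markers summed to 21.2 to 24.5 CPM in control and 29.9 to 34.4 CPM in IGF2BP3 KD libraries, nearly all of it *COL1A1*. The leukocyte markers summed to 2505 to 2733 CPM and 2542 to 2615 CPM, nearly all of it *LYZ*, while *CD68* was called higher (35.8 ± 2.62 to 51.9 ± 2.89 CPM). The part of these markers in the results was not tested.

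RefSeq's promoter table for GRCh38.p14, which gives 250 bases before and 50 after each transcription start, held 10 promoters of 7 of the genes, *CDKN1C* not among them. *CDKN2B* has 1 promoter there and *CDKN2A* has 2, the upstream one starting the transcript of the p14ARF protein and the downstream one that of p16. They are shown because *CDKN2B* was called and its neighbor *CDKN2A* was not, and the capitals mark GC boxes (GGGCGG on either strand, matches of other motifs not marked).

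CDKN2B, chr9:22009256-22009555, minus strand: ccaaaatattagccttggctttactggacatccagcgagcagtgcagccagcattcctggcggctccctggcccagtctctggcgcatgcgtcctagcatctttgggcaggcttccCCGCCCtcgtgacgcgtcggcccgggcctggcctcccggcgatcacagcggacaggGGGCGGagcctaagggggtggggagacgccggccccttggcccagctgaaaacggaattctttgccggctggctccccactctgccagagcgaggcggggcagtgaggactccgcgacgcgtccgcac
CDKN2A upstream, chr9:21995275-21995574, minus strand: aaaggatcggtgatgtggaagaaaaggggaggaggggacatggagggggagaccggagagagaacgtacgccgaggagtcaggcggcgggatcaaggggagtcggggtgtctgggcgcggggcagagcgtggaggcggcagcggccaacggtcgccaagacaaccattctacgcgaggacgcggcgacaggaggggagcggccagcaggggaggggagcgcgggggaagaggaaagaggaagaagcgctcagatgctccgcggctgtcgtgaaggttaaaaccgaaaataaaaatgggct
CDKN2A downstream, chr9:21974808-21975107, minus strand: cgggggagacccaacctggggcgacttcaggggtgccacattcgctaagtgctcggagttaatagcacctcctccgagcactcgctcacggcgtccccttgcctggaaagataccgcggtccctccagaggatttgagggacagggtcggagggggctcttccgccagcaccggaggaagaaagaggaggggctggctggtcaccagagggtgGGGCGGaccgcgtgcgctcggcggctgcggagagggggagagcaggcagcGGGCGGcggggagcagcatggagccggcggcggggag

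The *CDKN2B* promoter holds 25 CpG dinucleotides and 2 GC boxes, the downstream *CDKN2A* promoter 26 and 2, and the upstream *CDKN2A* promoter 28 and 0. Over the 35116 promoters of the table the median was 14 CpG dinucleotides, and 45.0% held a GC box. None of these 3 promoters holds a CCAAT box (CCAAT, 34.6% of all promoters), an E2F core (GGCGGGAA, 3.16%) or a CHR element (TTTGAA, 15.2%) on either strand. Among the other promoters of the family, the E2F core was found in 1 of the 3 *CDKN2C* promoters, and the *CDKN3* promoter was the only one with a CHR element, besides 2 CCAAT boxes. The *CDKN1A* promoter held 4 GC boxes and none of the other motifs. These are matches of letters and say nothing of binding.

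UGGAC is the motif that the study gives for IGF2BP3 binding sites. Among 13939 tested coding genes with a 3′ UTR in their canonical GENCODE v44 transcript, 61.4% hold this word (TGGAC in DNA letters) in the 3′ UTR. Of the CDK inhibitor genes, *CDKN1A* holds it 4 times, *CDKN1B*, *CDKN1C*, *CDKN2B* and *CDKN2D* once each, and *CDKN2A*, *CDKN2C* and *CDKN3* not at all. This count covers the canonical 3′ UTR only. Over whole annotated transcripts, the word is in 13 of 14 of *CDKN2A*, 3 of 3 of *CDKN2C* and 1 of 10 of *CDKN3*. A share of whole transcripts over all genes was not computed. The sites are shown with 10 bases on each side, the word in capitals and positions counted from 1 at the first base after the stop codon, because *CDKN2B*, the gene whose level was called, holds it once, as do *CDKN1B*, *CDKN1C* and *CDKN2D*, whose levels were not called.

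CDKN1A, bases 421 to 425: ccccctttccTGGACactcagacct
CDKN1A, bases 897 to 901: cccagctcaaTGGACtggaagggga
CDKN1A, bases 1209 to 1213: gtagaggctaTGGACagggcatgcc
CDKN1A, bases 1363 to 1367: catactggccTGGACtgttttctct
CDKN1B, bases 112 to 116: cttcatggaaTGGACatcctgtata
CDKN1C, bases 389 to 393: tgtccaggcgTGGACcgctctgcca
CDKN2B, bases 324 to 328: aatccttgacTGGACctggtggcta
CDKN2D, bases 203 to 207: tttggtgtgtTGGACagagaagggc

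Their 3′ UTRs differ in length, from 140 bases in *CDKN3* and 364 in *CDKN2C* to 1532 in *CDKN1A* and 3084 in *CDKN2B*, against a median of 1257 over the coding genes. Sites were counted per 3′ UTR, so longer ones had more room for the word. The 7-base words GATTACT and ACACATC, chosen with earlier results of these data known, are in the 3′ UTR of 7.69% and 9.53% of the coding genes. Neither occurs in any annotated transcript of the 8 CDK inhibitor genes, *CDKN2B* and its 3 transcripts included. The word ATTACTA (9.77% of the coding genes), is in none of their canonical 3′ UTRs and in 1 of 9 *CDKN1B* transcripts.

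In control cells the levels per length of exon spread over a wide range, and most of this order was the same after the knockdown. *CDKN1A* was highest at 48.1 ± 1.33 CPM per kb (SD, n = 3), followed by *CDKN3* at 21.3 ± 1.48, *CDKN2D* at 15.7 ± 0.894 and *CDKN2C* at 11.4 ± 0.611 CPM per kb. *CDKN2A* (8.08 ± 0.811 CPM per kb) and *CDKN1B* (7.13 ± 0.568) followed, then *CDKN2B* (6.17 ± 0.433) and *CDKN1C* (6.13 ± 0.387). The first 4 genes did not overlap their neighbor in the order in any control library. The last 4 each overlapped the next, so their order is not resolved. In IGF2BP3 KD cells *CDKN2B* was the lowest at 4.43 ± 0.36 CPM per kb, below *CDKN1C* at 6.51 ± 0.963, and the groups of values of these 2 genes did not overlap there.

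**Figure D1:**
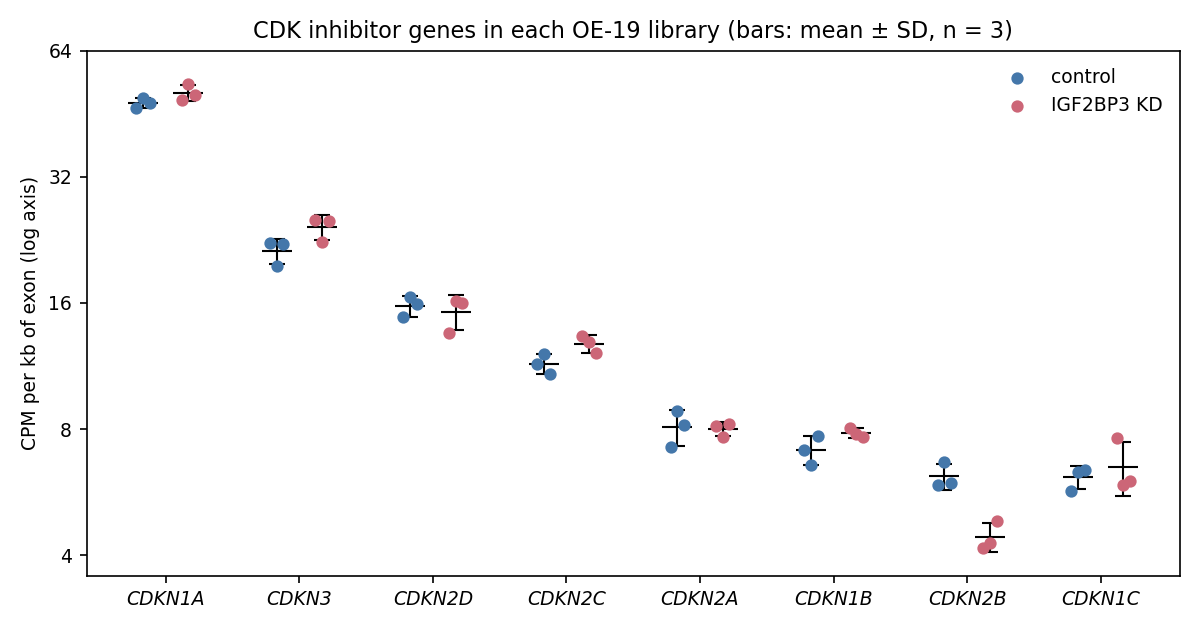
Level of each CDK inhibitor gene in each library as CPM per kb of exon (log axis), ordered by the control mean. Points are libraries, bars the mean ± SD of 3 libraries. *CDKN2B* is the gene whose IGF2BP3 KD values (4.15 to 4.83) lie under its control values (5.89 to 6.67), while the *CDKN1A* values span 46.8 to 53.3 over both groups.

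The order depends on the length used. Per kb of the canonical transcript, *CDKN2D* moved from rank 3 to rank 6 and *CDKN2B* became the lowest gene in control cells, while *CDKN1A* and *CDKN3* kept ranks 1 and 2. A long annotated exon set (9.26 kb for *CDKN1B*, against a transcript of 2.41 kb) lowers the level per kb.

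After IGF2BP3 KD, *CDKN2B* fell by 28.2% and no other CDK inhibitor gene was called. Among the 8 genes 1 was lower and 0 were higher, against 10.6% lower and 9.87% higher of all genes tested, together 20.4%, so a count of 1 is close to that background. That background includes genes with few counts, while each CDK inhibitor gene had at least 897. With at least 10 counts required in every library, 2319 of 17116 genes were lower and 2096 higher, and 1 and 0 of the 8 genes. A share over genes of like level was not computed. In bulk libraries, fewer cells with a transcript and less of it per cell cannot be told apart. At an unadjusted p under 0.05, 1 gene was lower and 3 were higher (*CDKN1B*, *CDKN2C* and *CDKN3*), where all genes tested gave 15.3% lower and 15.5% higher. With DESeq2, the package named in the study's methods, 1 gene was lower and 1 (*CDKN3*) was higher, against 16.6% and 14.2% of the 14585 genes to which it gave an adjusted p. The median log2 fold change of the 8 genes was 0.08, against 0.01 for all genes tested. The values of the groups did not overlap in *CDKN2B*, *CDKN2C* and *CDKN3*, as in 35.8% of all genes tested.

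**Figure D2:**
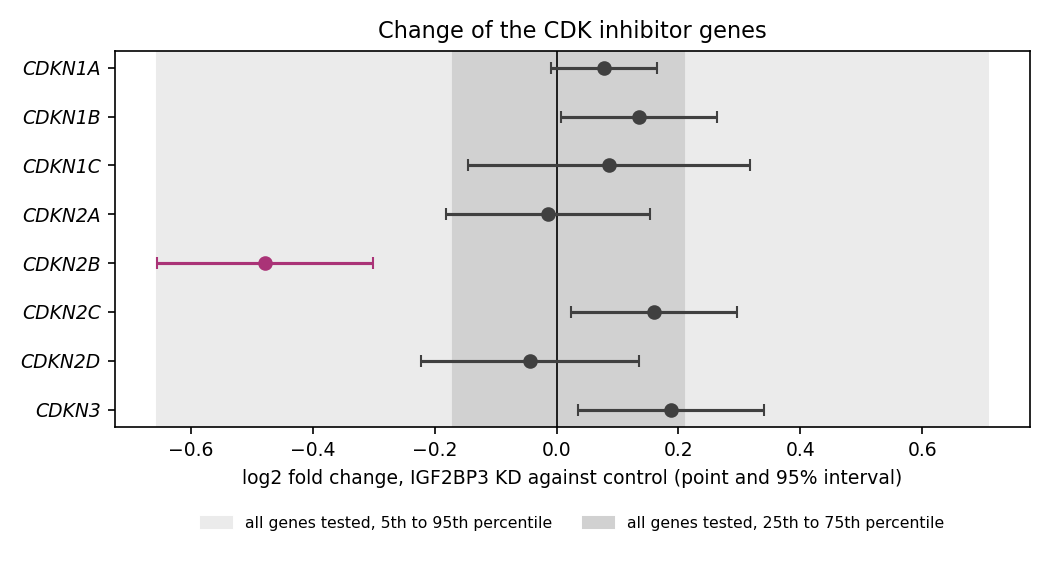
Log2 fold change of each CDK inhibitor gene in IGF2BP3 KD against control cells, with its 95% interval from edgeR. The dark and light bands hold the middle of all 19778 tested genes (-0.17 to 0.21 from the 25th to the 75th percentile, -0.66 to 0.71 from the 5th to the 95th), and the only interval that lies outside the dark band is that of *CDKN2B* (-0.66 to -0.30).

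The INK4 genes encode the inhibitors of CDK4 and CDK6. *CDKN2B* (ENSG00000147883, chromosome 9 of hg38, 22002903 to 22009305, minus strand) encodes p15, known as an inhibitor induced by TGF-beta. It was 23.6, 26.7 and 23.8 CPM in the control libraries, against 16.6, 17.2 and 19.3 CPM in the IGF2BP3 KD libraries. All 3 IGF2BP3 KD libraries lie under all 3 control libraries. The mean went from 24.7 ± 1.73 to 17.7 ± 1.44 CPM (SD, n = 3). In edgeR the log2 fold change was -0.48 (SE 0.08, adjusted p = 0.00151), a change of -28.2% with a 95% interval from -36.6% to -18.8%. By p it ranked 1332 among the 19778 genes, and 8.48% of the genes had a lower fold change. The call was made in each of the 15 alternatives, with values from -0.55 to -0.42. *CDKN2B* shares no exonic base with another gene of GENCODE v44. The CDK inhibitor genes were chosen with this fall known, so it is no independent evidence about them.

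*CDKN2A* (ENSG00000147889, chromosome 9, 21967752 to 21995301, minus strand) encodes p16 and, from its upstream promoter, p14ARF, which protects p53 by binding MDM2. It was 28.1, 34.4 and 31.7 CPM in the control libraries, against 31.6, 29.7 and 31.98 CPM in the IGF2BP3 KD libraries, so the groups overlap. With a log2 fold change of -0.01 (SE 0.08, edgeR adjusted p = 0.933) the gene was not called, with a 95% interval from -11.8% to 11.2%. The count of the gene cannot separate the p16 transcript from that of p14ARF. Of its 3885 exonic bases, 593 (15.3%) are shared with the antisense RNA *CDKN2B-AS1*, and the strand setting of the counting is not stated. *CDKN2B-AS1*, known as ANRIL, had 362 to 447 counts per library, or 6.41 ± 0.587 CPM in control and 6.37 ± 0.691 CPM in IGF2BP3 KD cells.

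The counts of both genes can also be set against each other within a library, where no scaling factor is needed. The ratio of *CDKN2B* counts to *CDKN2A* counts was 0.838, 0.776 and 0.750 in the control libraries, against 0.526, 0.577 and 0.605 in the IGF2BP3 KD libraries. The groups do not overlap, and the two-sided exact permutation p was 0.1, the smallest that 3 against 3 libraries allow. The ratios to *CDKN2C* (0.714 ± 0.0275 in control, 0.46 ± 0.0603 in IGF2BP3 KD) and to *CDKN2D* (1.04 ± 0.0415 and 0.773 ± 0.0609) were apart in the same way. For each of the 3 ratios the exact permutation p was 0.1, also after Benjamini-Hochberg adjustment over the 3. These ratios all have the *CDKN2B* counts as numerator, so they are not separate results, and they were chosen after the values were seen.

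**Figure D3:**
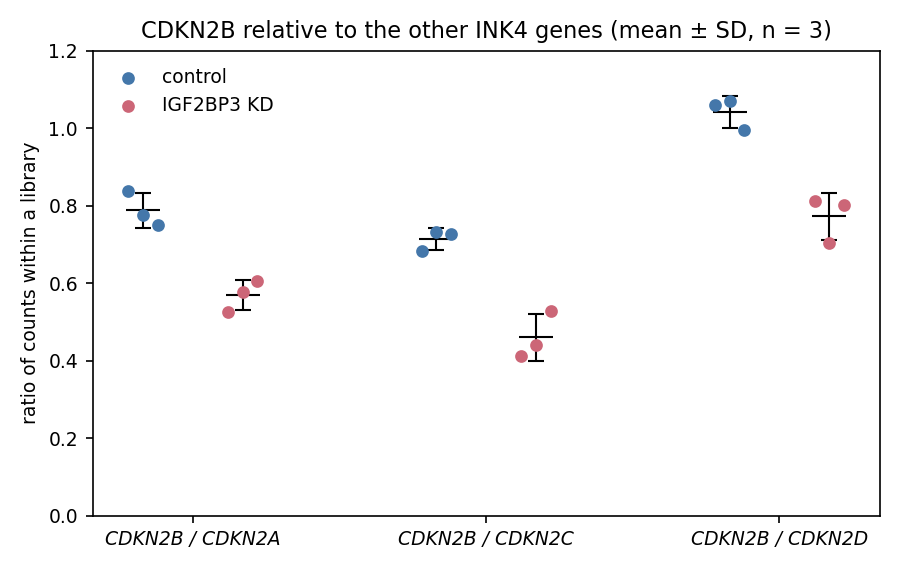
Ratio of the *CDKN2B* counts to the counts of each other INK4 gene within a library (axis from 0, no unit). Points are libraries, bars the mean ± SD of 3 libraries, and in all 3 ratios the IGF2BP3 KD libraries lie under the control libraries.

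At the 9p21 locus *CDKN2B* and *MTAP* were lower, while *CDKN2A*, *CDKN2B-AS1* and *DMRTA1* were not called. *MTAP*, the methylthioadenosine phosphorylase gene that lies 30100 bases from *CDKN2A* and is often deleted with it, was lower at -0.32 on the log2 scale (SE 0.06, edgeR adjusted p = 0.00308), and 9.64% of its exonic bases are shared with other genes. It was 66.6, 63.0 and 61.9 CPM in the control libraries, against 51.5, 54.7 and 46.8 CPM in the IGF2BP3 KD libraries. On the other side, *DMRTA1* lies 437518 bases from *CDKN2B* and had a mean under 1 CPM in both groups. *CDKN2A*, which lies between *MTAP* and *CDKN2B*, and *CDKN2B-AS1* both had a log2 fold change of -0.01.

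*CDKN2C* (ENSG00000123080, chromosome 1, 50960745 to 50974634, plus strand) encodes p18. It was 34.5, 36.4 and 32.7 CPM in the control libraries, against 40.4, 38.9 and 36.6 CPM in the IGF2BP3 KD libraries. The lowest IGF2BP3 KD library lies just above the highest control library. In edgeR its log2 fold change was 0.16 (SE 0.06, adjusted p = 0.0988), not called, with a 95% interval from 1.66% to 22.8% that is not adjusted for the number of genes. Of its 3018 exonic bases, 617 are shared with a long non-coding RNA on the opposite strand. *FAF1*, the coding gene 477 bases away on the other strand, was lower at -0.27.

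*CDKN2D* (ENSG00000129355, chromosome 19, 10566460 to 10569059, minus strand) encodes p19. It was 22.2, 24.9 and 23.9 CPM in the control libraries, against 20.4, 24.4 and 24.1 CPM in the IGF2BP3 KD libraries, and the groups overlap. Its log2 fold change of -0.04 (SE 0.08, edgeR adjusted p = 0.782) came with a 95% interval from -14.3% to 9.83%.

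The CIP/KIP genes encode the inhibitors of CDK2 complexes, and none of the 3 was called. *CDKN1A* (ENSG00000124762, chromosome 6, 36676460 to 36687337, plus strand) encodes p21, the best known transcriptional target of p53. It was 140, 148 and 144 CPM in the control libraries, against 147, 160 and 150 CPM in the IGF2BP3 KD libraries. The highest control library lies above the lowest IGF2BP3 KD library. It had a log2 fold change of 0.08 (SE 0.04, edgeR adjusted p = 0.21). This SE is the smallest of the family, and the 95% interval went from -0.591% to 12.1%. The antisense RNA *DINOL* shares 146 of its exonic bases. *DINOL* had 0, 10 and 4 counts in the control libraries and 0 in each IGF2BP3 KD library, and it was not tested.

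*CDKN1B* (ENSG00000111276, chromosome 12, 12685498 to 12722369, plus strand) encodes p27, whose level is controlled mainly by protein degradation. It was 66.1, 60.7 and 71.2 CPM in the control libraries, against 74.6, 72.0 and 70.8 CPM in the IGF2BP3 KD libraries. Control replicate 3 lies within the IGF2BP3 KD values, and the other 2 control libraries lie under them. At a log2 fold change of 0.13 (SE 0.06, edgeR adjusted p = 0.14) it was not called, with a 95% interval from 0.471% to 19.98%. *APOLD1*, the coding gene 3547 bases after it, was higher at 0.65 (6.06 ± 0.75 to 9.53 ± 0.209 CPM). Of the exonic bases of *APOLD1*, 25.6% are shared with another gene.

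*CDKN1C* (ENSG00000129757, chromosome 11, 2883213 to 2885775, minus strand) encodes p57 and is an imprinted gene. It was 14.1, 15.7 and 15.8 CPM in the control libraries, against 18.9, 14.6 and 14.9 CPM in the IGF2BP3 KD libraries. IGF2BP3 KD replicate 1 is the highest library and the other 2 lie within the control values. Its fold change was 0.09 on the log2 scale (SE 0.11, edgeR adjusted p = 0.653), and it was -0.05 without IGF2BP3 KD replicate 1. It has the widest interval of the family, from -9.64% to 24.6%. The CV over the IGF2BP3 KD libraries was 14.8%, where counting error alone gives 3.32% in the library with the fewest counts. Its coding neighbor *KCNQ1*, in the same imprinted cluster, was higher at 0.22 (edgeR adjusted p = 0.0441).

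*CDKN3* (ENSG00000100526, chromosome 14, 54396849 to 54420218, plus strand), the CDK phosphatase gene, had the largest positive fold change of the family. It was 40.7, 35.8 and 40.4 CPM in the control libraries, against 46.3, 40.9 and 46.0 CPM in the IGF2BP3 KD libraries. The lowest IGF2BP3 KD library lies just above the highest control library. In edgeR it reached 0.19 on the log2 scale (SE 0.07, adjusted p = 0.0829), not called, with a 95% interval from 2.51% to 26.7%. The call depends on the processing. With DESeq2 the adjusted p was 0.0497, and with the replicate number as a block in edgeR it was 0.0365. It was 0.0422 in edgeR after taking out the GC content trend of each library, and 0.195 after taking out that on exon length.

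**Figure D4:**
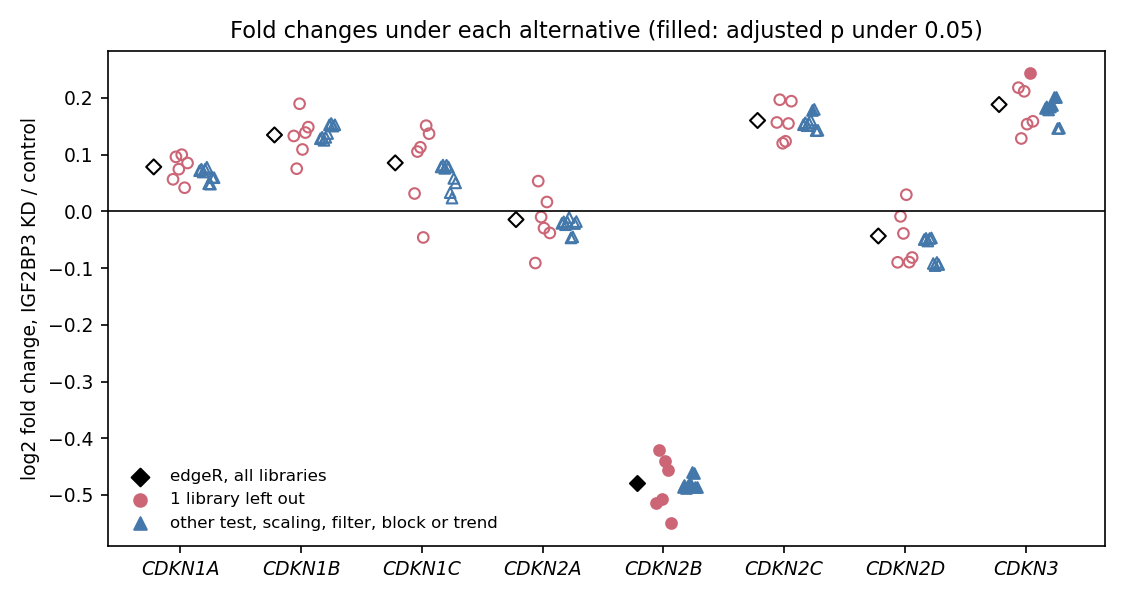
Log2 fold change of each CDK inhibitor gene under edgeR with all libraries (diamond), with 1 library left out (circles) and under the other alternatives (triangles). Symbols are filled where the adjusted p was under 0.05. *CDKN2B* is filled throughout, between -0.55 and -0.42, *CDKN3* under 5 of 15 alternatives and *CDKN2C* under 1 of 15.

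The genes whose pattern over the 6 libraries was most like that of *CDKN2B*, among 14288 other genes that reached a mean level of 1 CPM, were *RBM15*, *USP36*, *IL17RB*, *GATA3* and *DNAJC5*. The measure was the root mean square difference of log2 CPM centred on each gene's mean, which was 0.0356 for *RBM15*, a component of the m6A writer complex, and 0.0536 for *IL17RB*. *RBM15* had 41.4 ± 2.45 CPM in control and 29.5 ± 1.37 CPM in IGF2BP3 KD cells (-0.49 on the log2 scale). All 5 genes were lower, with fold changes from -0.52 to -0.45 (*USP36* and *IL17RB*). The measure covers the difference between the groups as well as that within them. A fall like that of *CDKN2B* was thus part of how these genes were picked and is no separate result.

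With all libraries, the genes around the CDK inhibitors were lower more often than higher, by count, in each of the 6 lists grouped by function. All genes tested gave 10.6% lower and 9.87% higher. In the list of transcriptional regulators the 2 counts were equal without control replicate 2 or IGF2BP3 KD replicate 2. The kinases and cyclins that the inhibitors bind had 12 tested members of 13, of which 6 were lower and 2 were higher (median log2 fold change -0.13), while the testis cyclin gene *CCNA1* had no count. *CDK4*, a target of the INK4 proteins, fell by 0.51 on the log2 scale, and 44.2% of its exonic bases are shared with another gene. *CDK6*, the other INK4 target, was higher at 0.10 (edgeR adjusted p = 0.0365), and *CCND3*, cyclin D3, at 0.13 (edgeR adjusted p = 0.043). *CCND1*, cyclin D1, was lower at -0.16 (385 ± 8.62 to 344 ± 7.5 CPM), and *CCND2*, cyclin D2, had -0.04 and was not called. *CDK2* was lower at -0.20 (edgeR adjusted p = 0.0189). *CCNA2*, *CCND1*, *CCND2* and *CDK2* were named after their values were seen. The count of 2 higher genes was 1 or 0 with any 1 library left out, and 0 without control replicate 2, control replicate 3 or IGF2BP3 KD replicate 2. Cyclin E and cyclin A are partners of CDK2 in the complexes that CIP/KIP proteins inhibit. Cyclin E was lower in both genes, with *CCNE1* at -0.63 (28.3 ± 0.657 to 18.4 ± 0.753 CPM) and *CCNE2* at -0.93. *CCNE2* shares 37.1% of its exonic bases with other genes. *CCNA2*, cyclin A2, was not called, with a log2 fold change of 0.02 (225 ± 5.45 to 228 ± 3.44 CPM).

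Among 10 genes for enzymes and subunits that modify CDKs, 3 were lower and 0 were higher (0 also at an unadjusted p under 0.05 in edgeR and with DESeq2), at a median log2 fold change of -0.15. The 3 were *WEE1*, a kinase that inhibits CDKs, at -0.84, and the activating phosphatases *CDC25A* at -0.57 and *CDC25B* at -0.24. Enzymes that inhibit CDKs and enzymes that activate them were thus both among the lower genes.

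The list for the turnover of CDK inhibitor proteins holds ligase subunits that mark p21 and p27 for destruction, together with genes that are not ligase subunits, such as *PCNA*. Of its 13 members, 6 were lower and 0 were higher (0 also at an unadjusted p under 0.05 in edgeR and with DESeq2, but 1 without control replicate 1), at a median of -0.10. *DTL*, which leads p21 to the CUL4 ligase, fell from 40.9 ± 2.04 to 28.5 ± 1.33 CPM (log2 fold change -0.52), and *CUL4A* from 304 ± 5.93 to 215 ± 2.37 CPM (-0.50). *PCNA*, the replication clamp on which this ligase acts, fell at -0.39. The CUL4 ligase subunits *CUL4B* (139 ± 8.81 to 139 ± 0.129 CPM) and *DDB1* (193 ± 5.38 to 191 ± 7.05 CPM) were not called. *SKP2*, which leads p27 to its ligase, was lower at -0.17, and these 3 genes were named after their values were seen. RNA counts do not measure the inhibitor proteins.

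Of 22 genes for transcriptional regulators of CDK inhibitor genes, 6 were lower and 4 higher (median log2 fold change -0.04). With 1 library left out, between 4 and 6 were lower, at 4 without control replicate 2, control replicate 3 or IGF2BP3 KD replicate 2. Between 3 and 4 were higher, at 4 without control replicate 2 or IGF2BP3 KD replicate 2, where lower and higher genes were thus equal in number. The 6 lower genes were *SP3*, which binds GC boxes, at -0.17 and 5 genes of Polycomb complexes, which are known to silence the 9p21 genes. *SUZ12*, *EZH2* and *EED* of the PRC2 complex were lower at -0.37, -0.30 and -0.28. *CBX8* and *BMI1* of PRC1 were lower at -0.34 and -0.15, *BMI1* with an edgeR adjusted p of 0.0495. *RNF2* of PRC1 had -0.10 and was not called, and *CBX7* of PRC1 was higher at 0.48 (48.8 ± 1.82 to 67.8 ± 3.04 CPM). Of the exonic bases of *CBX7*, 21.6% are shared with other genes. *KDM6B* was higher at 0.20 (edgeR adjusted p = 0.0393). *SP3*, *EED*, *BMI1*, *RNF2* and *KDM6B* were named after their values were seen. *FOXO4*, of a family that activates *CDKN1B*, was higher at 0.37, and *KLF6*, a zinc finger factor known to activate *CDKN1A*, at 0.27. The SMAD genes, which carry the TGF-beta signal to *CDKN2B*, were named after their values were seen. *SMAD2*, *SMAD3* and *SMAD4* had log2 fold changes of 0.19, -0.10 and -0.11 and were not called.

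Downstream of the inhibitors, 5 of 11 pocket protein and E2F genes fell and 1 rose, the median being -0.12. The 5 were *E2F1*, *E2F2*, *E2F3*, *E2F4* and *E2F6*, while the pocket protein genes *RB1*, *RBL1* and *RBL2* had 0.02, -0.12 and -0.12 and were not called. *E2F2*, *E2F4* and the pocket protein genes were named after their values were seen. *E2F6* was lowest at -0.70 (22.5 ± 0.454 to 13.9 ± 0.387 CPM) and *TFDP1*, the partner of E2F proteins on DNA, was higher at 0.11. The call of *TFDP1* was lost without control replicate 2, IGF2BP3 KD replicate 1 or IGF2BP3 KD replicate 2. Among 24 tested p53 target genes other than *CDKN1A*, 8 fell and 1 rose, the median being -0.09. *ZMAT3*, *GDF15* and *TIGAR* were lower at -0.76, -0.62 and -0.58, and *CCNG1*, cyclin G1, was higher at 0.63, while *CDKN1A* itself was not called. Of the exonic bases of *TIGAR*, 19.4% are shared with other genes. No list was tested as a set, and the lists were chosen with earlier results of these data known.

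**Figure D5:**
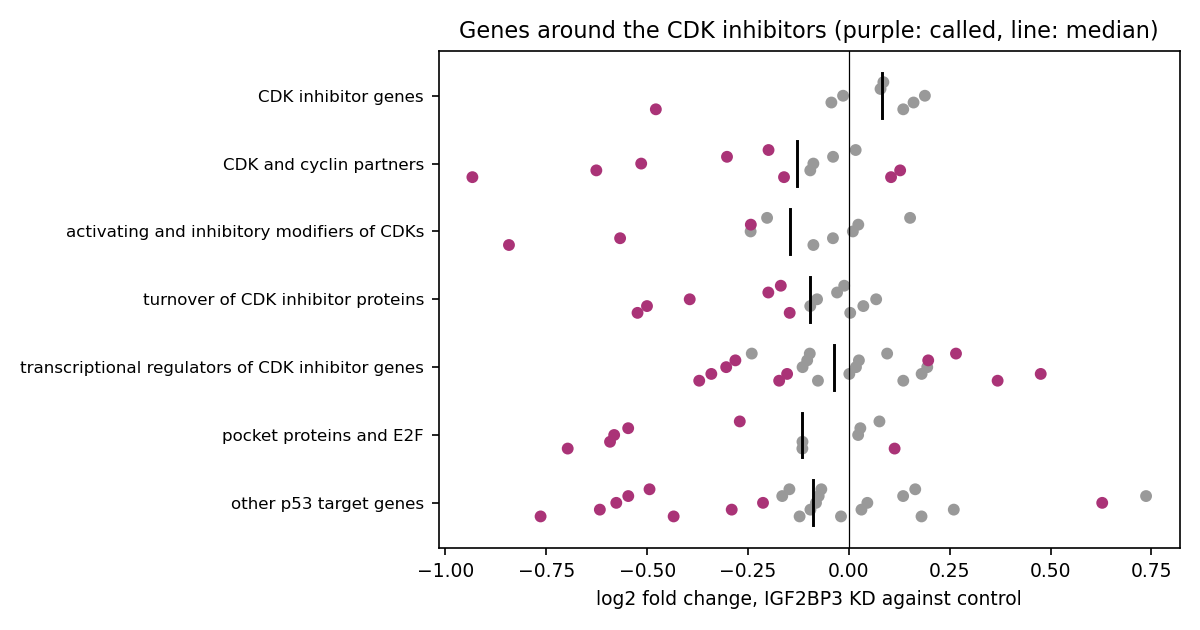
Log2 fold change (IGF2BP3 KD against control) of the CDK inhibitor genes and of the tested members of 6 lists, 1 point a gene, purple where called and grey where not, with a black line at each median. The CDK inhibitor genes have a median of 0.08 with 1 called gene, and the medians of the 6 lists lie between -0.15 and -0.04.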

How the data were processed

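OE-19 cells were profiled by poly(A) RNA-seq with 3 control and 3 IGF2BP3 KD libraries. Per the labels and the study's methods, the authors aligned reads to hg38 with hisat2 (fastp is also listed), and featureCounts gave the deposited values, which are raw counts per gene. Versions, annotation release and strand setting are not given in the sources used here. Of 60612 entries, 132 repeats of 44 identifiers were left out.

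Counts were scaled by TMM (factors 0.992 to 1.01) and filtered with filterByExpr (minimum count 10, minimum total 15), and 19778 genes were tested with glmQLFit and glmQLFTest of edgeR 4.0.16 in R 4.3.3 without a block, adjusted with Benjamini-Hochberg at 0.05. The script was tested on simulated data. SEs and 95% intervals were derived from the F statistic. Levels per kb use all exons of a gene in GENCODE v44 on hg38, which annotates 99.97% of the tested genes.

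Named genes are the CDK inhibitor genes, *IGF2BP3*, nearest coding neighbors, overlapping genes, the 5 genes most like *CDKN2B*, and from each list up to 3 rises and 3 falls among called genes of at least 1 CPM without overlap between groups, and not all of these are printed. Members and lists were chosen with earlier results of these data known. Alternatives tried were the replicate block, DESeq2 1.42.0, leaving out each library, scaling by RLE, no filter, a minimum of 10 counts in each of the 6 libraries, an adjusted p under 0.01, and GC content or exon length trends removed by offsets (lowess span 0.3). Levels per canonical transcript and the INK4 ratios were added after the data were seen. Python 3.11.15 with scipy 1.17.1 and matplotlib 3.10.9 was used.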

Additional observations from a re-analysis of the deposited data

How the results depend on the processing

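*CDKN2B* was called lower in all 15 alternatives and was the only CDK inhibitor gene called lower in any of them. In edgeR with all libraries it was also the only one lower at an adjusted p under 0.01. Without IGF2BP3 KD replicate 2 its adjusted p from edgeR was 0.011. The count of CDK inhibitor genes called higher, 0 in edgeR without a block, was 1 with DESeq2, 1 with the replicate block, 2 with the GC trend removed and 1 with the GC trend removed together with the replicate block. It lay between 0 and 1 with each library left out, at 1 without IGF2BP3 KD replicate 2. The gene was *CDKN3* each time, with *CDKN2C* (adjusted p = 0.0498 from edgeR with the GC trend removed) as the second, and the cause was not tested. Among the lists, the count of kinase and cyclin genes called higher went from 2 to 0 without a low-count filter, and that of pocket protein and E2F genes from 1 to 0. The replicate block gave 2026 lower and 1875 higher genes over all genes tested, and with each library left out these counts lay between 1641 and 1970 and between 1414 and 1741. With the GC trend removed, 2466 of 19773 genes were lower and 2090 higher. Together with the replicate block, the removal gave 2354 lower and 1953 higher genes of 19773. Same-numbered libraries of the groups did not deviate together over genes (correlations of -0.02, -0.05 and -0.04). The log2 deviations of *CDKN3* from its group mean were 0.063, -0.117 and 0.053 in the control libraries. In the IGF2BP3 KD libraries they were 0.061, -0.115 and 0.054, so this gene deviated alike by replicate number, while *CDKN2B* did not. Whether the libraries are paired is not stated in the labels and was not tested. Apart from that of *CDKN3*, the block changed no call among the CDK inhibitor genes. *CDKN1C*, *CDKN2A* and *CDKN2D* changed sign when 1 library was left out, without a call on either side. With 3 libraries a group, the intervals of the genes not called still hold changes of up to 12.1% (*CDKN1A*) and 26.7% (*CDKN3*).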
